A study of Mus musculus with 6 samples.

Results

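Complement and coagulation factors are plasma proteins that the liver makes and secretes. A fixed list of 40 of their genes, covering complement components with their regulators and receptors, clotting factors, and the proteins that limit clotting or dissolve clots, was read in mouse liver with and without MafG overexpression. The rule took every array probe whose gene symbol in the platform annotation is on the list. That gave at least 1 probe for 37 of the 40 genes, out of 16593 genes with a probe; C3, Cfd and Cfp had no probe under their symbols and are not analysed here. Of the 37, 34 passed the filter on dim probes (detection p under 0.05 on at least 3 of 6 arrays), among 8827 genes that passed. The 34 were above background on all 6 arrays.

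The samples were 6 whole livers of wild-type C57BL/6 mice, 1 array per mouse. Ad-MafG was given to 3 mice and Ad-Control, which the labels also call Ad-CMV, to 3 mice, each for 5 days, and livers were taken after a fast of 4 to 6 h. The sources used here do not give age, sex or the promoter that drives MafG, and both groups carry an adenoviral treatment. MafG is a small Maf protein, which binds DNA as a dimer and has no activation domain of its own.

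Hepatocytes are the main source of most of these proteins. In the lectin pathway, mannose-binding lectins on a microbe carry the proteases MASP-1 and MASP-2. MASP-2 cleaves C4 and C2 into pieces that form an enzyme that splits C3. The cascade ends with C5 to C9, which assemble a pore in the target membrane. In clotting, factor VII starts a chain of proteases through factor X and its cofactor factor V to thrombin, which turns fibrinogen into fibrin; protein C and antithrombin restrain the chain, and plasmin dissolves the fibrin.

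The median non-normalized signal lay between 160.6 and 180 in the Ad-Control arrays and between 181.6 and 185.8 in the Ad-MafG arrays, and 12079 to 13042 of 25697 probes were detected per array. The hepatocyte markers Ttr, Apoa1, Apoa2, Apoc3, Ahsg and Ambp were bright in all livers, while the Alb and Tat probes were dim in both groups. The single Mafg probe read lower in the Ad-MafG livers (log2 fold change -0.54, limma adjusted p = 0.0341), and the sources used here do not say whether it lies within the Ad-MafG insert, so it does not check the labels. All directions below rest on those labels. Each log2 fold change sets Ad-MafG against Ad-Control in background-corrected, quantile-normalized intensity, and adjusted p-values come from limma with Benjamini-Hochberg adjustment over all 8827 genes. In whole liver, fewer cells of a type and less RNA per cell cannot be told apart.

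In the livers labelled Ad-MafG, 8 of the 34 genes fell and 0 rose. The 8 were Masp1, Mbl1 and C8a of complement and F7, F5, F10, Proc and Serpinf2 of the coagulation system. Of all genes tested 9.91% were called in either direction, 3.63% as lower and 6.29% as higher. The count at an unadjusted p under 0.05 was 21 lower and 0 higher, where 29.8% of all genes passed, 14.3% lower and 15.5% higher. In 24 of the 34 genes the 3 Ad-MafG values all lay below the 3 Ad-Control values, a pattern that 17.9% of all genes showed; in 2 genes, C4bp and Cfi, they all lay above, as in 18.3% of all genes. Groups without overlap in either direction made up 36.2% of all genes. Of the 34 genes 30 lay below 0, as did 52.8% of all genes. The median log2 fold change of the 34 was -0.37, and that of all genes was -0.02.

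**Figure D1:**
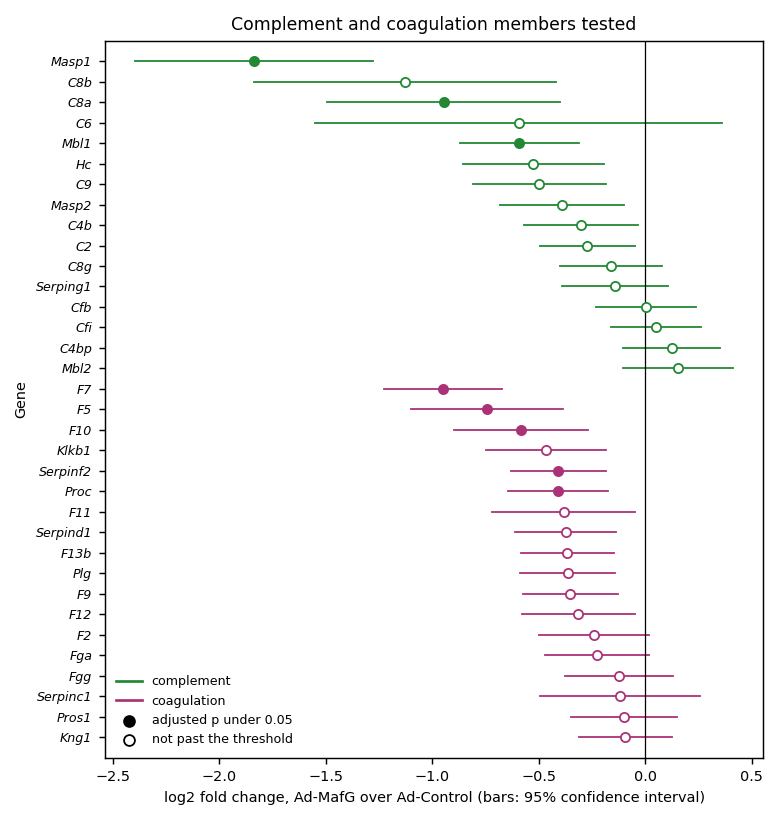
Log2 fold change of each of the 34 genes tested, with its 95% confidence interval, complement genes above and coagulation genes below; filled points passed an adjusted p of 0.05. The largest fall was that of Masp1 at -1.84, and all 18 coagulation genes lay below 0.

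Of the 8 genes called, Masp1 and F7 passed under every alternative tried. With each array left out in turn, C8a, Mbl1, F5, F10 and Proc each passed in 1 of the 6 fits, and Serpinf2 in 0. Leaving out Ad-Control 2 gave 7 calls among the 34, and leaving out Ad-MafG 2 gave 3. Leaving out any of Ad-Control 1, Ad-Control 3, Ad-MafG 1 and Ad-MafG 3 gave 2. The share of all genes called moved too: it was 13.6% without Ad-Control 2 and between 1.34% and 3.96% in the other 5 fits, against 9.91% with all arrays. With all 6 arrays, the other processing choices gave between 2 and 23 lower and 0 higher, while the share of all genes called ran from 1.6% to 14.9%. A further 8 genes, namely Hc, C8b, C9, F9, F13b, Plg, Klkb1 and Serpind1, had an adjusted p between 0.05 and 0.06.

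Masp1, which encodes the lectin pathway protease MASP-1, showed the largest difference. Its normalized log2 intensity was 11.22, 11.41 and 11.46 in the Ad-Control livers and 9.64, 9.96 and 8.98 in the Ad-MafG livers. All 3 Ad-MafG values lay more than 1 log2 unit below the lowest control, and Ad-MafG 3 was the lowest. Masp1 thus fell by 1.84 log2 units, with an SE of 0.24 and a 95% confidence interval from -2.40 to -1.28, which is 3.57-fold lower (adjusted p = 0.0111). Before any normalization the signals were 2127.5, 2896.4 and 2731.4 in Ad-Control and 1039.7, 1202.8 and 716.1 in Ad-MafG. In the authors' deposited table the group mean was 2608.0 for Ad-Control and 758.6 for Ad-MafG. Masp1 also makes other splice products, among them the protease MASP-3 of the alternative pathway, and the sources used here do not say which of them the single probe reads. Across the alternatives the log2 fold change of Masp1 ran from -2.06 to -1.57, and the highest adjusted p was 0.048.

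The other lectin pathway genes did not move as one. Mbl1, a mannose-binding lectin, had 11.70, 11.94 and 11.75 in Ad-Control and 11.30, 11.26 and 11.04 in Ad-MafG, so that the groups did not overlap. It fell by 0.59 on the log2 scale (SE 0.12, adjusted p = 0.0297). Its paralogue Mbl2 had 12.96, 13.15 and 12.94 in Ad-Control and 13.21, 13.05 and 13.24 in Ad-MafG, and these values overlapped. Its log2 fold change was 0.15, with a 95% confidence interval from -0.11 to 0.41 (adjusted p = 0.391). Masp2, which encodes the protease that cleaves C4 and C2, had -0.39 with an SE of 0.12 (adjusted p = 0.0848); its 3 Ad-MafG values lay below the controls.

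The sequences before the starts of Mbl1 and Mbl2 are shown because these sister genes read differently in the same livers. Each is the 250 bases before the annotated start from RefSeq, build GRCm38.p6, at chr14:41151206-41151455 and chr19:30232678-30232927, both on the plus strand. Capitals mark the longest run of letters that both share, 13 bases, which ends 11 bases before the start of Mbl1 and 45 bases before that of Mbl2.
Mbl1: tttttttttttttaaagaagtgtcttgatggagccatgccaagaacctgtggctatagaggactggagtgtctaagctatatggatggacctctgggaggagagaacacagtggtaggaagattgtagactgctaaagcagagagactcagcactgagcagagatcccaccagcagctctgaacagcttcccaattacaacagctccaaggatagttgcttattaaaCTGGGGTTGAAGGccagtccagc
Mbl2: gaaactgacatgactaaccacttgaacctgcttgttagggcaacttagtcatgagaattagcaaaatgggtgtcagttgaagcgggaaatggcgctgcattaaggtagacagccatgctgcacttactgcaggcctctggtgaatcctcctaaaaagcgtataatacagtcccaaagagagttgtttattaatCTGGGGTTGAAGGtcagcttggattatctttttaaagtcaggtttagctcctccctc

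C4b and C2, whose products form the enzyme that the lectin proteases assemble, had log2 fold changes of -0.30 (adjusted p = 0.13) and -0.27 (adjusted p = 0.106). In both the 3 Ad-MafG values lay below the 3 controls. C4b has a near-identical neighbour, C4a, and the separate value of C4b is uncertain. Cfb, the alternative pathway counterpart of C2, had 12.92, 12.83 and 12.77 in Ad-Control and 12.81, 12.78 and 12.93 in Ad-MafG. The groups overlapped, and the log2 fold change was 0.002 with a 95% confidence interval from -0.23 to 0.24. On the same chromosome C2 and Cfb are direct neighbours.

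All 6 terminal pathway genes lay below 0, and C8a passed the threshold. C8a, the alpha chain of C8, had 11.60, 11.87 and 11.9998 in Ad-Control and 10.93, 11.31 and 10.39 in Ad-MafG. The groups did not overlap, and Ad-MafG 3 was lowest. C8a fell by 0.95 on the log2 scale (SE 0.23, adjusted p = 0.0475). C8b, the beta chain, had 12.57, 13.05 and 12.97 in Ad-Control and 11.92, 12.24 and 11.03 in Ad-MafG. Its log2 fold change of -1.13 was larger than that of C8a, but its SE was 0.30 and the adjusted p was 0.0566. Without Ad-MafG 3 the log2 fold change was -0.71 for C8a (adjusted p = 0.107) and -0.78 for C8b (adjusted p = 0.101).

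The third C8 chain did not share that size of difference. C8g, the gamma chain, which is a lipocalin and lies on another chromosome, had a log2 fold change of -0.16 with a 95% confidence interval from -0.40 to 0.08 (adjusted p = 0.327). Its probe was brighter, with a mean log2 intensity in Ad-Control of 14.10, against 11.82 for C8a and 12.86 for C8b. The part of brightness in this contrast was not tested. Hc, the gene of C5, had -0.53 (adjusted p = 0.0562) and C9, which lines the pore, had -0.50 (adjusted p = 0.0557), and in both the groups did not overlap. C6 had -0.59 with an SE of 0.41, and its values overlapped, running from 10.69 to 12.08 in Ad-Control and from 10.26 to 11.47 in Ad-MafG.

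C8b and C8a are direct neighbours on chromosome 4, and their upstream sequences are shown because, of the listed complement genes, the pair had the largest log2 fold changes after Masp1. Both are the 250 bases before the start from RefSeq, GRCm38.p6, at chr4:104766067-104766316 on the plus strand for C8b and chr4:104876399-104876648 on the minus strand for C8a. Capitals mark matches, on either strand, to the HNF1 element GTTAAT in both and to the STAT element TTCNNNGAA in C8a.
C8b: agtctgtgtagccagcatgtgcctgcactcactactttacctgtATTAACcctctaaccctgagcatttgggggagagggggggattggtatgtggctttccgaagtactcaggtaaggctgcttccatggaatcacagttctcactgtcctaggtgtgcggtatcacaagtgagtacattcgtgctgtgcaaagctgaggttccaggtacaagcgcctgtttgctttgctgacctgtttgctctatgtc
C8a: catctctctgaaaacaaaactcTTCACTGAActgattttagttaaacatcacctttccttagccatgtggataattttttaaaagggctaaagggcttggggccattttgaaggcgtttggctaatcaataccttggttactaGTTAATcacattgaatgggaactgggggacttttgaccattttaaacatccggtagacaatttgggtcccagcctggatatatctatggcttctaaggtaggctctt

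The upstream 250 bases were at hand for 25 of the 34 genes tested, and Masp1 was not among them. The HNF1 element GTTAAT was found in 6 of the 25 (C4bp, C8a, C8b, F13b, Fga and Hc) and in 6.43% of all 32851 promoter sequences. The STAT element TTCNNNGAA was found in 5 (C8a, F9, Fga, Masp2 and Pros1), against 7.02% of all. The core of the antioxidant response element, TGACNNNGC, which small Maf dimers are known to bind, was found in 2 (Klkb1 and Serpind1), against 10.2% of all. The full Maf recognition element was found in 0 of the 25 and in 0.00609% of all, and the HNF4 element CAAAGTCCA in 0 and in 0.384%. Both strands were searched, and the motifs can overlap one another. A listed gene counted if any of its sequences matched, whereas the percentages are over single sequences. These matches describe letters only.

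The 3 listed regulators of complement lay near 0. Cfi, the protease that inactivates C3b and C4b, had 14.17, 14.10 and 14.17 in Ad-Control and 14.18, 14.21 and 14.19 in Ad-MafG, a log2 fold change of 0.05 (adjusted p = 0.747). C4bp, its cofactor for C4b, had 0.12 (adjusted p = 0.431). Serping1, the C1 inhibitor, had -0.14 (adjusted p = 0.406). The sign of C4bp and Cfi depended on the scaling: after median scaling they had -0.03 and -0.16, with neither past the threshold. The receptors for C3a and C5a, C3ar1 and C5ar1, are expressed mainly by myeloid cells, and their probes were not above background on any array.

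Of the coagulation genes, F7 had the smallest adjusted p. F7, which encodes the protease that starts clotting with tissue factor, had 10.76, 10.58 and 10.74 in Ad-Control and 9.90, 9.74 and 9.59 in Ad-MafG. The groups lay well apart relative to their spread, with SDs of 0.10 and 0.15. F7 fell by 0.95 log2 units, with an SE of 0.12 and a 95% confidence interval from -1.23 to -0.67, which is 1.93-fold lower (adjusted p = 0.01). In the authors' deposited table the group mean was 1601.6 for Ad-Control and 845.0 for Ad-MafG.

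F10, its substrate and its direct neighbour on chromosome 8, had 13.54, 13.24 and 13.37 in Ad-Control and 12.86, 12.95 and 12.60 in Ad-MafG. It fell by 0.58 on the log2 scale (SE 0.13, adjusted p = 0.0405). F5, the cofactor of factor X in making thrombin, had 10.45, 10.15 and 10.55 in Ad-Control and 9.77, 9.75 and 9.41 in Ad-MafG. It fell by 0.74 on the log2 scale (SE 0.15, adjusted p = 0.0309). Neither group pair overlapped. F2, which encodes prothrombin, had -0.24 (adjusted p = 0.193) and F9, the factor missing in haemophilia B, had -0.35 (adjusted p = 0.0592).

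The restraining proteins were mixed in size. Proc, which encodes protein C, the protease that inactivates factors V and VIII, had 13.78, 13.69 and 13.82 in Ad-Control and 13.27, 13.45 and 13.35 in Ad-MafG, without overlap. It fell by 0.41 on the log2 scale (SE 0.10, adjusted p = 0.047). Its cofactor protein S, Pros1, had -0.10 with a 95% confidence interval from -0.35 to 0.15. Serpinc1, the gene of antithrombin, had -0.12 with an interval from -0.50 to 0.26 by the probe that stood for it. A further Serpinc1 probe of similar brightness had -0.35 (limma adjusted p = 0.118 with every probe tested). On that probe the groups did not overlap. Serpind1, the thrombin inhibitor heparin cofactor II, had -0.37 (adjusted p = 0.0565).

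**Figure D2:**
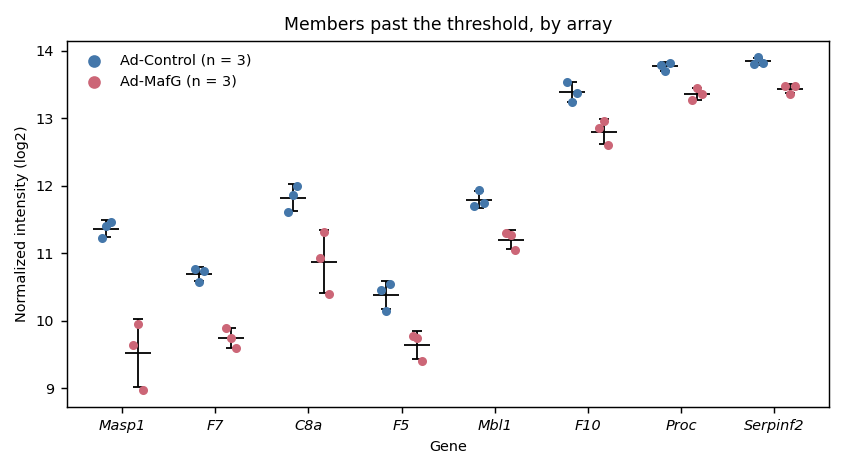
Normalized log2 intensity of the 8 genes past the threshold on each array, with points for single livers and bars for the group mean ± SD (n = 3 each). In none of the 8 genes do the groups overlap, and the gap is widest for Masp1.

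Among the genes of fibrin and its removal, Serpinf2 passed. Serpinf2 encodes alpha-2-antiplasmin, the main plasmin inhibitor, and had 13.81, 13.90 and 13.82 in Ad-Control and 13.48, 13.36 and 13.47 in Ad-MafG. The groups did not overlap, and it fell by 0.41 on the log2 scale (SE 0.10, adjusted p = 0.0415). Plg, which encodes plasminogen, the target of that pathway, had -0.37 (adjusted p = 0.0531). Fga and Fgg, chains of fibrinogen, had -0.23 (adjusted p = 0.195) and -0.12 (adjusted p = 0.476), and F13b, the carrier subunit of the factor that cross-links fibrin, had -0.37 (adjusted p = 0.0502). The Fgb probe was not above background on any array, and no value is given for that chain.

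Genes of the contact system, which starts clotting on negatively charged surfaces, did not pass. Klkb1, which encodes prekallikrein, had 11.74, 11.74 and 12.07 in Ad-Control and 11.38, 11.35 and 11.42 in Ad-MafG. The groups did not overlap, and the log2 fold change was -0.47 (SE 0.12, adjusted p = 0.0523). Its neighbour and paralogue F11 had -0.38 (adjusted p = 0.126) and F12 had -0.31 (adjusted p = 0.116). Kng1, the gene of the kininogen that bradykinin is cut from, had -0.09 (adjusted p = 0.529) by the probe that stood for it. Its close paralogue Kng2 had -0.46 (adjusted p = 0.0626), and their separate values are uncertain.

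For 11 genes more than 1 probe passed the filter, 29 probes in all, and 29 of the 29 lay below 0. The probe with the highest mean intensity stood for the gene, and in 8 of the 11 that probe had the smallest fall. When every probe was tested on its own, 12 probes of 10 genes passed by rounded adjusted p-values, and 5 of the 12 did not stand for their gene. The Proc probe that stood for its gene had a limma adjusted p that rounds to 0.05. It is not among the 12, but it passed before rounding. By the unrounded values 8 of the 34 genes were called by the probe that stood for them, Proc among them. In that test 9.73% of all genes were called by the probe that stood for them, and the share over all probes was not counted. For Kng1 the further probes had -0.31 and -0.85, the latter with an adjusted p of 0.0184. Plg had -0.75 on 1 further probe (adjusted p = 0.0318) and Masp2 had -0.73 (adjusted p = 0.026). All 3 probes of Serpinf2 passed, at -0.41, -0.52 and -0.68. With the mean of all probes in place of the brightest, 13 of the 34 genes passed in place of 8. The share of all genes called was then 11.2% in place of 9.91%.

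**Figure D3:**
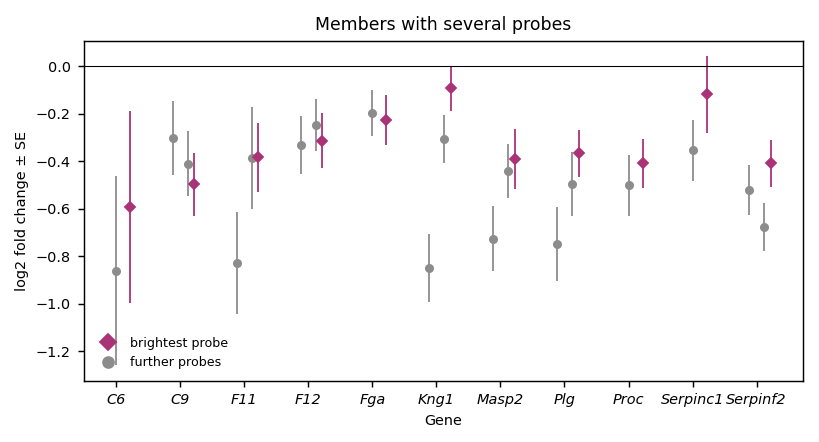
Log2 fold change ± SE of each probe for the 11 genes with several probes past the filter; diamonds mark the brightest probe, which stood for the gene, and circles the others. All 29 probes lie below 0, and the probes of Kng1 spread from -0.09 to -0.85.

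The 6 livers were not alike within their groups. Of the 34 genes, 22 had their lowest value in Ad-MafG 3, 5 in Ad-MafG 1 and 2 in Ad-MafG 2. Of the 8 genes past the threshold, 6 had their lowest value in Ad-MafG 3. The mean log2 level over the 34 genes lay between 12.96 and 13.01 in Ad-Control and was 12.62, 12.69 and 12.45 in Ad-MafG, while over all 8827 genes it lay between 8.88 and 8.92.

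General hepatocyte markers were set beside these values. Of 10 such markers tested, 0 passed limma's threshold and 1 had an unadjusted p under 0.05, and their median log2 fold change was -0.07. Of the 10, 8 lay below 0 and 2 above. The 1 was Rbp4, at -0.40 without overlap (limma adjusted p = 0.104), and Cps1 had -0.24 (adjusted p = 0.225). Their mean log2 intensity in Ad-Control was 13.63 and 14.79. It lay between 15.11 and 15.36 for Ttr, Apoa1, Apoa2, Apoc3, Ahsg and Ambp, and was 6.70 for Alb and 6.42 for Tat. The mean log2 level of the 10 markers lay between 13.13 and 13.41 in Ad-Control and between 13.11 and 13.23 in Ad-MafG. Probe brightness was also compared. Among the 885 other genes with a mean log2 intensity over 12 the median log2 fold change was 0.04 and 44.3% lay below 0, and for the 24 listed genes in that range the median was -0.31 and 83.3% lay below 0. For the 10 listed genes at 12 or less the median was -0.59 and 100% lay below 0. Of these 10 genes 5 were called lower, and of the 24 brighter ones 3, where 3.63% of all genes were called lower. Other genes at 12 or less were not counted apart. Of 10 stellate cell and fibroblast markers tested, Col1a1, Col1a2, Col3a1 and Lum rose and 0 fell; their mean log2 level lay between 8.002 and 8.262 in Ad-Control and between 8.652 and 8.946 in Ad-MafG. The part of cell content or of probe brightness in the falls was not tested.

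**Figure D4:**
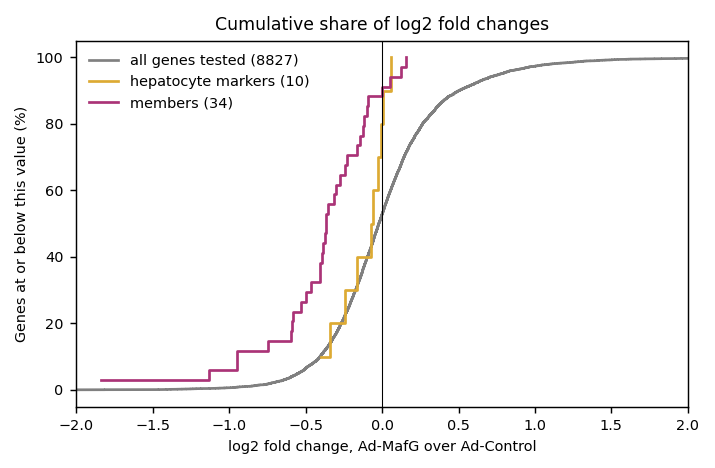
Cumulative share of genes, in percent, at or below each log2 fold change for all 8827 genes tested, 10 hepatocyte markers and the 34 complement and coagulation genes; a few genes beyond 2 log2 units are outside the axis. The curve of the 34 genes lies left of that of all genes, with medians of -0.37 and -0.02.

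Scaling changed how many genes passed. Of all changed genes 63.4% were higher with quantile normalization, 75.3% with median scaling over all probes and 49.8% with median scaling over detected probes. The number of the 34 called lower was 8, 14 and 23 in that order, and 0 were called higher in each. The share of all genes called lower was 3.63%, 2.96% and 6.65%. Mbl2, Cfb, Cfi and C4bp, the only genes of the 34 above 0, all lay below 0 in the last of these. The median of the 34 genes, taken relative to the median of all genes, was -0.34 with quantile normalization and -0.49 with either median scaling.

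Other genes of both cascades came from a list of 90 symbols, of which 70 had a probe and 53 passed the filter. Of the 53, 4 rose and 5 fell, beside 6.29% of all genes called higher and 3.63% called lower. The 3 chains of C1q, the recognition molecule of the classical pathway, rose together. C1qc had 11.81, 11.56 and 11.48 in Ad-Control and 12.63, 12.81 and 12.79 in Ad-MafG, a log2 fold change of 1.13 (SE 0.12, adjusted p = 0.00736). C1qb rose by 0.98 (adjusted p = 0.0173) and C1qa by 0.77 (adjusted p = 0.0243) on the log2 scale. In none of the 3 did the groups overlap. C1s1, which encodes the protease C1s bound to C1q, had -0.40 (adjusted p = 0.0631).

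C1q is made mainly by macrophages. Of 7 macrophage and Kupffer cell markers tested, Adgre1 and Cd14 rose, by 1.40 and 1.35 on the log2 scale (adjusted p = 0.00993 and 0.0202), and 0 fell; Timd4 had -1.48 (adjusted p = 0.249) and Marco -1.06 (adjusted p = 0.101). The mean log2 level of the 7 lay between 9.37 and 9.70 in Ad-Control and between 9.39 and 10.12 in Ad-MafG, and probes for Itgam and Cd5l were not above background on any array. The part of macrophage content in the rise of the C1q genes was not tested.

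Susd4, a membrane regulator of complement, and Cpn2, a subunit of the carboxypeptidase that inactivates C3a and C5a, fell. Cpn2 had 9.10, 9.20 and 9.18 in Ad-Control and 8.09, 8.39 and 7.70 in Ad-MafG, and its log2 fold change was -1.10 (SE 0.18, adjusted p = 0.0164). Susd4 had -1.41 with an SE of 0.26 (adjusted p = 0.0235), and -0.64 with no background correction. The other 17 complement genes of this list did not pass, with log2 fold changes from -0.44 for Cfhr2 (adjusted p = 0.0939) to 0.65 for Itgb2 (adjusted p = 0.068).

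In coagulation, Serpina5, the protein C inhibitor, rose the most. It had 5.84, 6.32 and 6.89 in Ad-Control and 8.55, 8.09 and 8.67 in Ad-MafG, so that the lowest Ad-MafG liver lay above the highest control. Serpina5 rose by 2.09 log2 units (SE 0.28), which is 4.25-fold (adjusted p = 0.0111), and it passed under all 20 alternatives. The log2 fold change of Serpina5 was 1.12 when the background was not corrected. Its non-normalized signals in Ad-Control were low, at 166.3, 210.7 and 221.7, against 562.4, 429.3 and 600.2 in Ad-MafG. Proz, the cofactor of the protein Z dependent inhibitor of factor X, fell by 0.77 log2 units (adjusted p = 0.0389). Hrg, a histidine-rich plasma protein that binds heparin and plasminogen, fell by 0.60 (adjusted p = 0.0493), and Hgfac, a protease related to factor XII that activates hepatocyte growth factor, fell by 0.56 (adjusted p = 0.0384). Factors II, VII, IX and X need a vitamin K dependent carboxylation. The carboxylase gene Ggcx had -0.11 (adjusted p = 0.503). Vkorc1, the gene of the reductase that recycles vitamin K for it, had -0.23 (adjusted p = 0.141).

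Of these 9 calls, those of C1qc and Serpina5 were made with every array left out in turn. Those of Susd4 and Cpn2 were made in 4 of the 6 fits with an array left out, those of C1qa and C1qb in 3, that of Proz in 2, that of Hgfac in 1 and that of Hrg in 0. The number of the other pathway genes called ran from 3 to 12 over those 6 fits.

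**Figure D5:**
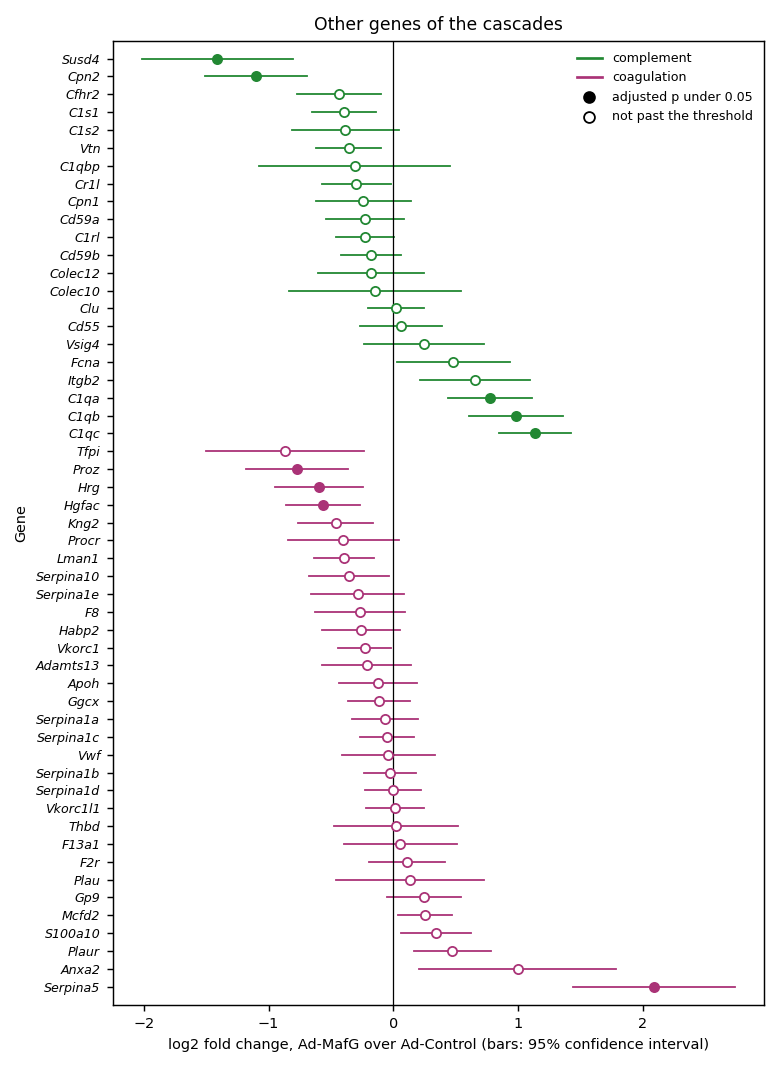
Log2 fold change with its 95% confidence interval for the 53 other genes of the cascades that were tested, complement above and coagulation below; filled points passed an adjusted p of 0.05. The 3 C1q genes and Serpina5 lie to the right, and Susd4, Cpn2, Proz, Hrg and Hgfac are the filled points to the left.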

How the data were processed

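Total RNA from 6 livers was hybridised to Illumina BeadChip arrays. Per the file headers, the authors deposited non-normalized mean bead intensity and a detection p-value for each probe and array. They also deposited intensity scaled per array, and a table of group means with a signed difference score. The sources used here give neither the error model of that score nor the scaling method.

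The non-normalized intensities were corrected by normexp (limma 3.58.1, R 4.3.3), whose parameters the detection p-values gave, then offset by 16, taken to log2 and quantile-normalized. A probe was kept if at least 3 arrays had a detection p under 0.05, which left 12893 of 25697. The probe with the highest mean stood for a gene. Groups were compared with lmFit and eBayes, two-sided, adjusted over 8827 genes, with a threshold of 0.05. The fit was tested on simulated data. The number of arrays limits precision. Platform symbols of 23978 probes were used; 23962 gene numbers matched RefSeq of GRCm38.p6, and 0 symbols changed. The array files name no build, so no gene coordinates are given beside the RefSeq promoter sequences.

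The genes and lists were chosen with earlier results of these data known. Every listed gene was accounted for; of the other genes of the cascades, those past the threshold were named, with Ggcx, Vkorc1, Cfhr2, Itgb2, C1s1 and Kng2 added after their values were seen. The upstream sequences shown of C8a, C8b, Mbl1 and Mbl2 were also chosen after the values were seen. Marker genes named were among the 4 with the smallest p of their list, except the hepatocyte markers that show the tissue and the undetected Itgam and Cd5l.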

Additional observations from a re-analysis of the deposited data

How the results depend on the processing

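The direction held most firmly: under all 20 alternatives 0 of the listed genes were called higher, 30 to 34 lay below 0, and their median lay between -0.576 and -0.319. In the main fit 52.8% of all genes lay below 0. The count of 34 came with median scaling over detected probes, where the median of all genes was -0.091 and 33 listed genes lay below that median. The number called lower, 8 (3 of complement, 5 of coagulation), moved more. It was 18 (8 and 10) with no background correction, 14 (6 and 8) with median scaling, 16 (7 and 9) with the authors' scaled intensities, and 16 (6 and 10) with an offset of 50, with detection on all 6 arrays, or with detection p under 0.01. It was 19 (8 and 11) with trend and robust eBayes, 13 (coagulation 9) with the mean of probes, and 5 (coagulation 3) with no detection filter, where more genes are tested. Array weights gave 9 for coagulation. Median scaling over detected probes, added after seeing the data, gave 23 (10 and 13). The share of all genes called moved as well, from 9.91% in the main fit. It was 14.9% with no background correction and with trend and robust eBayes, 12% with median scaling and 10.9% with the authors' scaled intensities. An offset of 50 and array weights each gave 13.1%, detection on all 6 arrays 13% and detection p under 0.01 13.9%. The mean of probes gave 11.2%, no detection filter 3.59% and median scaling over detected probes 13.3%. The median log2 fold change of the listed genes was -0.445 with median scaling, -0.469 with the authors' scaled intensities and -0.576 with median scaling over detected probes. With each array left out in turn, 2 to 7 were called, 1 to 2 of complement and 1 to 5 of coagulation, with a median between -0.384 and -0.319. Other pathway genes changed numbered 9, and 14 with no background correction, 16 with trend and robust eBayes, 15 with median scaling over detected probes, and 3 to 12 with each array left out. The replicate numbers did not pair the samples: same-numbered deviations correlated at 0.035, -0.138 and -0.125. With the replicate block, 2 listed genes were called (Masp1 and F7; 1 and 1) and 2 other pathway genes, against 141 of all genes in place of 875. Signs turned only for genes near 0. The log2 fold change of Cfb was -0.091 with median scaling, -0.005 with cyclic loess, -0.116 with the authors' scaled intensities, -0.028 with array weights, -0.223 with median scaling over detected probes, and between -0.043 and 0.042 with each array left out. The log2 fold change of Cfi was -0.157, -0.003, -0.181 and -0.288 with median scaling, cyclic loess, the authors' scaled intensities and median scaling over detected probes. The log2 fold change of C4bp was -0.031, -0.055 and -0.162 with the first, the third and the last of these, and the log2 fold change of Mbl2 was -0.083 with the last. The cause of these differences was not tested. All 6 arrays carry the same chip number in the labels, and 3 listed genes had no probe above background.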
